A study of Daphnia magna with 230 samples.

Results

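Among *D. magna* neonates exposed to stormwater, a group of transcripts was low in water collected in early summer and higher in water of both spring and late summer. The 100 transcripts with the strongest form of this pattern are described here. Of 29127 transcripts in the table, 16290 reached a mean of 1 CPM (the count scaled to a common library total) over the stormwater libraries, and the members were taken from these. For each transcript the season means of log2(CPM + 1) were formed, and the score was the smaller of spring minus early summer and late summer minus early summer. The season means of stormwater thus chose the members, so these are given as a description without a test. What the rule did not use is the level of the same transcripts in 21 laboratory control libraries, in 69 libraries of the wetland experiment, and between the kinds of stormwater.

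Each library was made from a pool of 5 neonates of laboratory-reared animals from a commercial supplier (Carolina Biological Supply) after 96 h of exposure. The study's methods mention a different genetic background for each experiment, whereas the labels name the same supplier for both, so levels were tested within an experiment only. Stormwater came from the inflow and the outfall of an iron-enhanced sand filter at 3 sites (37ST, TBNS1 and TBNS2) and from 3 pipes (Cedar Lake, Crystal Lake and SAP), collected in spring (April), early summer (May) and late summer (September), with no pyriproxyfen added. All stormwater exposures were run in January. There were 45, 44 and 50 stormwater libraries in spring, early summer and late summer, and 6, 5 and 10 laboratory controls (SCSU Control) with the same season labels. The late summer numbers include a second set of 5 libraries of the SAP pipe and of 5 controls. In the wetland experiment, laboratory water held no pyriproxyfen, a lower dose (Lab Water-119 ng/L) or a higher dose (Lab Water-239 ng/L), with 5 libraries each. Water of 6 wetlands (Kerk, Douglas and Kandiyohi of high and Woodland, LeSouer and Breen of low quality by an index of biological integrity) held none (30 libraries) or the lower dose (24 libraries). Pyriproxyfen is an insecticide that mimics juvenile hormone. The unspiked wetland waters held the ethanol carrier, whereas the control in laboratory water was water only. Pyriproxyfen was dissolved in ethanol, so in laboratory water the dose and the carrier cannot be told apart, and a spiked library against an unspiked one is pyriproxyfen with carrier against plain water. The libraries of 1 water are pools from the same water sample, and nothing in the labels says that they came from separate cultures, so p-values measure the spread between these pools. The code letters and numbers of the stormwater libraries follow the season labels, controls included, so the season of the water and the handling of the libraries cannot be told apart. One library with a late summer label and the code letter of early summer was left out. In pools of whole animals, fewer cells of a type and less RNA per cell cannot be told apart.

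*Daphnia* grows by shedding its exoskeleton, and neonates pass through several moults in their first days. Before each moult the epidermis lays down a new cuticle of chitin fibres bound by cuticular proteins, and many cuticular proteins are transcribed only in a short window of the moult cycle. Ecdysteroids start the moult, and methyl farnesoate, the crustacean form of juvenile hormone, acts beside them in development and reproduction.

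Of the 100 members, 20 have an informative name in the tables of the study, 44 are listed as uncharacterized, conserved or expressed proteins, and 36 have no name there. Those tables hold transcripts the study had picked out in these libraries, so the named members are not a neutral sample of the 100. Of all 16290 transcripts, 72 are named there as cuticle proteins. Cuticle formed the largest named group, with 7 members: Dapma7bEVm029435, Dapma7bEVm028497, Dapma7bEVm011058, Dapma7bEVm001312 and Dapma7bEVm016050 (cuticular protein), Dapma7bEVm011304 (Cuticular protein 27 precursor) and Dapma7bEVm010402, which carries the chitin-binding domain of insect cuticle proteins. Proteins of the outer surface and of matrices were also named. Dapma7bEVm015004 has a zona pellucida domain, found in proteins of the apical extracellular matrix, and Dapma7bEVm001757 and Dapma7bEVm019165 are listed as chorion peroxidase precursors, in *Drosophila* enzymes that harden the eggshell. Dapma7bEVm015018 and Dapma7bEVm015019 are named Zormin, in *Drosophila* a protein of the muscle Z-disc. The enzymes were a carbonic anhydrase (Dapma7bEVm027279), which forms bicarbonate from carbon dioxide, a sulfotransferase (Dapma7bEVm011788), carboxypeptidase B (Dapma7bEVm002146), a digestive peptidase, and a clip-domain serine protease (Dapma7bEVm018830), a class that works in arthropod immune and developmental cascades. Transporters were 2 ABC transporters of family G (Dapma7bEVm004062 and Dapma7bEVm027858), a family that exports lipids in insects. Dapma7bEVm015615 is a Pol polyprotein of a retrotransposon, and Dapma7bEVm001422 is named only by a scaffold. Of the 57 genes of the study's season model 45, and of the 16 genes of its pyriproxyfen model 15, were among the 16290 transcripts, and none of these was a member, where 100 of 16290 are members.

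Read assignment limits single members. Dapma7bEVm001607 and Dapma7bEVm027611 had identical values in every library and cannot be told apart. The other members of gene families with near-identical copies, such as the cuticular proteins, the Zormin pair and the ABC transporters, may share reads in the same way, so their single values are uncertain.

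The level over the members is given as the mean of log2(CPM + 1) over the 100 transcripts in a library. In stormwater its median was 6.88 in spring (1.28 to 8.86), 3.70 in early summer (0.88 to 6.95) and 6.52 in late summer (1.34 to 7.81). Of the 44 early summer libraries, 43 lay below the median of spring and 41 below the median of late summer. The ranges overlapped, since 6 spring and 2 late summer libraries lay below the early summer median. The share of all counts taken by the members had a median of 2.46% in spring, 0.323% in early summer and 2.32% in late summer. The mean of log2(CPM + 1) over all 16290 transcripts was 3.81, 3.80 and 3.97 in the same order, and the median library totals were 10750689, 10713064 and 9860182 counts.

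**Figure D1:**
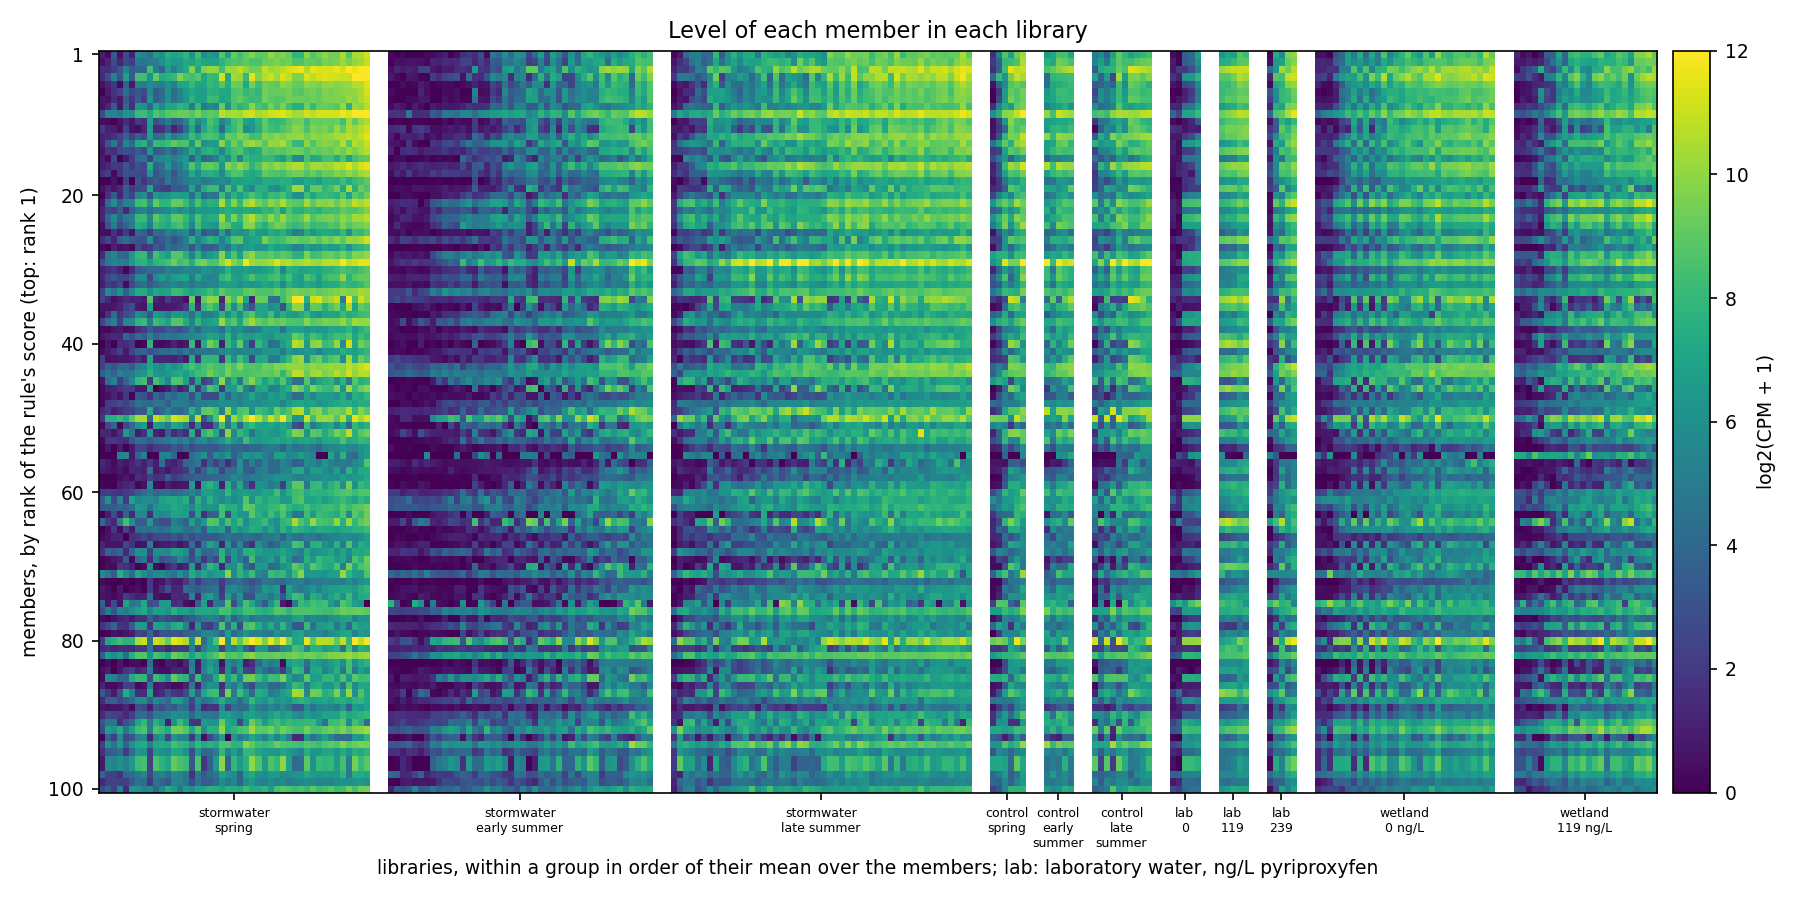
Level of each of the 100 members (rows, by rank of the score) in each library (columns, grouped by water and, within a group, ordered by their mean over the members), as log2(CPM + 1) in colour. Most members were dark together in the same libraries. No such library occurred in laboratory water with the lower dose of pyriproxyfen or in the early summer controls.

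The score ran from 3.54 to 1.79 with a median of 2.19, beside a median of -0.02 over all 16290 transcripts. On the log2 scale the members were 1.79 to 4.66 lower in early summer than in spring and 1.79 to 3.98 lower than in late summer. Just inside the limit were Dapma7bEVm000420 (1.80), Dapma7bEVm000917 (1.79) and Dapma7bEVm001668 (1.787), and just outside it were Dapma7bEVm005378 (1.783), Dapma7bEVm004408 (1.78) and Dapma7bEVm018412 (1.77), so the list has no natural end at 100. The members' mean levels over stormwater ranged from 11.5 to 1218 CPM with a median of 124.4 CPM. For 42 members the spring mean was above the late summer mean, and for the others it was below. Dapma7bEVm011953 leaned most to spring (1.48 higher than in late summer) and Dapma7bEVm018615 most to late summer (1.34 lower in spring, as a difference of -1.34); both were picked out after their values were seen.

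The 10 members with the highest score were Dapma7bEVm022532, Dapma7bEVm022448, Dapma7bEVm009594, Dapma7bEVm009669, Dapma7bEVm005800, Dapma7bEVm029435, Dapma7bEVm028896, Dapma7bEVm018491, Dapma7bEVm002067 and Dapma7bEVm015018. Only the cuticular protein Dapma7bEVm029435 and the Zormin transcript Dapma7bEVm015018 among them have an informative name. Dapma7bEVm022532, first in the list and without a name, had a median of 321 CPM in spring (0.268 to 2340), 16.7 CPM in early summer (0 to 350) and 243 CPM in late summer (0.183 to 1411). The cuticular protein Dapma7bEVm029435 had a median of 235 CPM in spring (0 to 2291), 17.1 CPM in early summer (0 to 419) and 224 CPM in late summer (0 to 1066). For both, every season held libraries near 0, and the early summer libraries did not reach the highest levels of the other seasons. Dapma7bEVm009669 had the widest gap between spring and early summer among these 10, 4.66 on the log2 scale, with medians of 791 and 17.7 CPM. The most abundant members were Dapma7bEVm004488, Dapma7bEVm002067 and Dapma7bEVm001606. Dapma7bEVm004488 had medians of 988, 140.6 and 1502 CPM in spring, early summer and late summer, Dapma7bEVm002067 had 1274, 99.5 and 1153 CPM, and Dapma7bEVm001606 had 1417, 162 and 656 CPM.

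The cuticle members followed the same course at different levels. Dapma7bEVm011304 had medians of 176.9 CPM in spring (0.334 to 2242) and 3.00 CPM in early summer (0.201 to 311), and lay between 0.57 and 923 CPM in late summer. Medians in spring, early summer and late summer were 186, 12.7 and 176 CPM for Dapma7bEVm028497 and 186, 14.2 and 197 CPM for Dapma7bEVm010402. Dapma7bEVm016050 was the member with the lowest mean level, with medians of 11.9, 0.508 and 14.1 CPM, and 17 of the 44 early summer libraries held 3 or fewer of its counts. Of 75 transcripts named as cuticle proteins in the study's tables, 72 had a mean of at least 1 CPM, and early summer was the lowest season in 30 of these, beside 7617 of all 16290 transcripts. The median score of the 72 was -0.93, below that of all transcripts (-0.02). None of 10 chitin enzymes and none of 11 globins with a mean of at least 1 CPM was a member, where 100 of all 16290 transcripts are. Lists this short would seldom hold a member at that share.

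The early summer level differed between the 9 sampling points. Cedar Lake pipe was lowest, with mean levels of 2.04, 1.12, 1.03, 2.58 and 0.90 in its 5 libraries, beside 5.13 to 8.86 in spring and 4.17 to 7.76 in late summer. In these 5 libraries 18 to 45 of the 100 members had 3 or fewer counts, beside 0 to 2 members in the spring libraries of the same pipe. TBNS1 inflow followed with 3.25, 2.14, 1.05, 1.60 and 2.16. At both of these points, and at TBNS1 outfall, all 100 members had their lowest season mean in early summer. The 3 seasons were closest at Crystal Lake pipe, where the means of the libraries were 4.73, 4.64 and 5.09 and early summer was lowest for 38 members only. Spring replicate 3 of this pipe stood apart from all other stormwater libraries, with the fewest counts (5040650) and a mean of log2(CPM + 1) over all transcripts of 2.21, beside at least 3.42 in the others. Without it the spring mean was 5.31, early summer was lowest for 42 members, and 95 of the 100 members were chosen again. At TBNS2 inflow (67 members) and 37ST inflow (75 members) the pattern was also partial. Over the members, 22 were lowest in early summer at all 9 points, 33 at 8 points and 45 at fewer, with at least 5 points for each. Points and members share the libraries that chose the members, so these counts describe how widely the low season was spread and are no check of it.

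**Figure D2:**
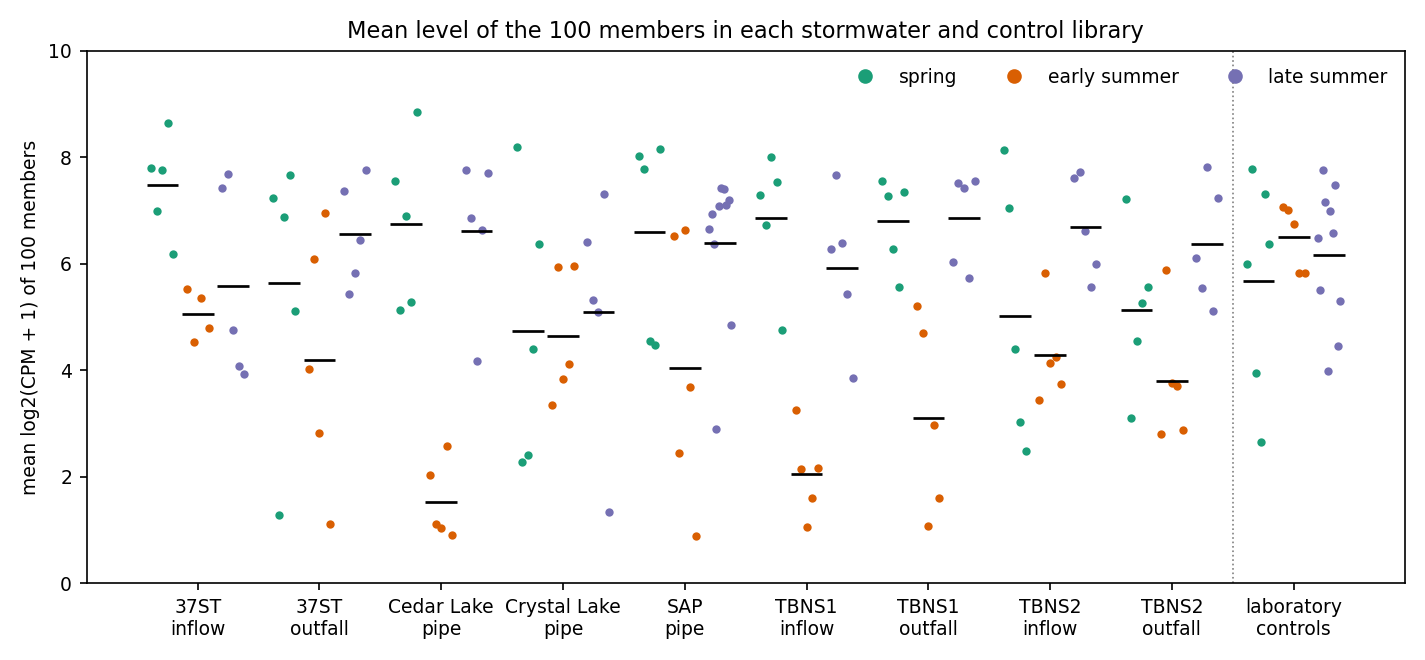
Mean log2(CPM + 1) of the 100 members in each library (points) at each of the 9 stormwater sampling points and in the laboratory controls, by season, with black bars at the mean of the libraries. Early summer libraries were lowest at Cedar Lake pipe and TBNS1 inflow, close to the other seasons at Crystal Lake pipe, and not low in the controls.

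Libraries of the same water differed widely. At 37ST outfall in early summer the 5 mean levels were 4.03, 6.09, 2.82, 6.95 and 1.12, and in spring they were 7.23, 1.28, 6.88, 7.68 and 5.11. The SD between libraries of the same water was 2.05 for the median member, beside 0.44 for the median of all 16290 transcripts, and 97 of the 100 members were among the 10% of transcripts with the highest SD. Members also went up and down together within a water. After subtraction of the mean of each water, Pearson's r between 2 members had a median of 0.67 over the stormwater libraries, beside 0.17 over all pairs of transcripts. In the wetland experiment, which the rule did not use, the median r was 0.76 over 69 libraries, beside 0.03 over all pairs. In the 21 controls it was 0.58, beside 0.10. These correlations are descriptions over libraries that share waters and library preparation. In stormwater the rule itself favours transcripts with a wide spread, so the SD and r there are not independent of it. The transcripts set beside the members were not matched to them for SD. A few members stood outside the common course. In stormwater, 3 members had an r below 0.5 with the mean of all members, the lowest being Dapma7bEVm010745 (0.21). In the wetland experiment there were 5 such members, with Dapma7bEVm001422 lowest (-0.12), and in the controls there were 15, with Dapma7bEVm010076 lowest (-0.07).

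The controls, in laboratory water, carry the same season labels and library codes, and show whether the members were low there as well. They were not low in any early summer control. The 5 early summer controls had mean levels of 7.07, 7.01, 6.75, 5.82 and 5.83, the 6 spring controls 5.99, 7.78, 3.94, 2.66, 7.32 and 6.37, and the 10 late summer controls lay between 3.99 and 7.76 with a median of 6.53. The early summer controls were thus within the range of the others. Of the 44 early summer stormwater libraries, 36 were below the lowest early summer control, and the mean of all 100 members was lower in these stormwater libraries than in the early summer controls. Since these stormwater libraries chose the members, that difference carries no test.

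For the controls the test was independent of the rule, but it could miss a difference as large as that in stormwater. The early summer controls were only 5, and the SD within control groups was 2.07 for the median member. By edgeR's quasi-likelihood test over all transcripts, no member passed an adjusted p of 0.05 between early summer and spring controls in either direction, where 0.0274% of 25590 transcripts were higher and 0.00391% lower. DESeq2 also gave 0 members (backgrounds 0.32% and 0.617%). At an unadjusted p under 0.05 there were 2 members, beside 11.3% of all transcripts. Against late summer controls the count was again 0 with both tools (backgrounds 0.262% higher and 0.207% lower with edgeR, 0.817% and 1.12% with DESeq2), with 2 members at an unadjusted p under 0.05, beside 11.3% of all transcripts. The median log2 fold change of the members was -0.17 against spring and 0.08 against late summer. On the scale of the mean of log2(CPM + 1), by contrast, early summer was the highest season in 67 members and the lowest in 20, so the direction in the controls depends on the scale.

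The cuticular protein Dapma7bEVm029435 shows the spread behind these values. It had 232, 268, 295, 79.4 and 150 CPM in the early summer controls and 88.6, 693, 2.90, 0, 414 and 549 CPM in the spring controls. The spring controls lay on both sides of the early summer controls. Dapma7bEVm022532 had 151.5, 358, 348, 88.2 and 131.7 CPM in early summer and 423, 1175, 35.2, 1.98, 616 and 119.1 CPM in spring.

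In the wetland experiment the members were low in laboratory water without pyriproxyfen and high in every library with the lower dose. The mean levels were 1.06, 1.11, 3.94, 4.56 and 3.64 without pyriproxyfen and 6.64, 7.34, 6.43, 7.39 and 6.85 with the lower dose, so the groups did not overlap. In the 5 unspiked libraries 1 to 36 members had 3 or fewer counts, beside 0 to 1 with the lower dose. By edgeR's quasi-likelihood test, 47 of the 100 members were higher with the lower dose and none was lower, where 3.86% of 24858 transcripts were higher and 6.21% lower. DESeq2 gave 60 higher and 1 lower, beside 5.95% and 8.73% of all transcripts. The median log2 fold change was 2.91 over the members and 0.01 over all transcripts. All 5 libraries with the lower dose were above all 5 without it for 61 members, beside 5.72% of all transcripts.

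Among the members that rose, Dapma7bEVm011304 (Cuticular protein 27 precursor) had 2.23, 1.78, 1.33, 0.926 and 0.612 CPM without pyriproxyfen and 710, 751, 473, 906 and 687 CPM with the lower dose. The fold change on the log2 scale was 8.90 ± 0.43 (SE; adjusted p = 8.18e-07). Here and below, SE is an approximate value, the absolute log2 fold change divided by the square root of the test's F statistic. Carbonic anhydrase (Dapma7bEVm027279) had 1.46, 1.98, 2.30, 2.01 and 2.30 CPM without and 392, 177, 228, 380 and 335 CPM with the lower dose, with a log2 fold change of 7.15 ± 0.30 (SE; adjusted p = 4.27e-07). In both, the unspiked libraries lay close together at a low level and the spiked ones were all far above. The largest rise was that of Dapma7bEVm009453, a conserved protein, which had 0, 0, 0.419, 0.925 and 0.117 CPM without and 1516, 689, 1015, 1245 and 1205 CPM with the lower dose. Its log2 fold change of 11.69 ± 0.93 (SE; adjusted p = 2.43e-05) depends on the prior count of the fit, since the base is at or near the floor of 3 counts.

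All 7 cuticle members rose with the lower dose (and its carrier) in laboratory water. Of the 68 other transcripts named as cuticle proteins, 12 rose and 41 fell in the same test, and the median log2 fold change of all 75 was -3.56. Of 12 chitin enzymes, 7 fell and none rose, with a median of -3.15. Over all transcripts 3.86% rose and 6.21% fell. The study's tables name transcripts it had picked out in these libraries, in part by this contrast. The counts by name, members included, are therefore not independent of it. Both Zormin transcripts rose (7.38 for Dapma7bEVm015018, adjusted p = 0.00315, and 7.01 for Dapma7bEVm015019, adjusted p = 0.00221), as did both ABC transporters, the sulfotransferase and the chorion peroxidase Dapma7bEVm001757. Carboxypeptidase B (Dapma7bEVm002146) had a log2 fold change of 2.78 with an adjusted p of 0.057, and the first member of the list, Dapma7bEVm022532, one of 2.96 with an adjusted p of 0.22. The second chorion peroxidase, Dapma7bEVm019165, had 1.05 with an adjusted p of 0.34. In 11 members the log2 fold change was below 0, the lowest in Dapma7bEVm015004 with the zona pellucida domain (-2.58, adjusted p = 0.17). Dapma7bEVm001606, one of the most abundant members, was also among these 11. It had 3.88, 1.19, 1034, 1145 and 1003 CPM without and 149.6, 751, 113.8, 390 and 204 CPM with the lower dose.

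With the higher dose the libraries were divided. The mean levels were 5.08, 6.36, 6.79, 1.79 and 7.67, so 4 libraries were above all unspiked libraries and replicate 4 was within their range. The same 5 unspiked libraries were the base here as for the lower dose. The test called 9 members higher and 0 lower (backgrounds 0.157% and 0.783% of 24904 transcripts), and DESeq2 gave 42 higher and 0 lower, beside 1.38% and 2.63% of all transcripts. The median log2 fold change was 3.34. Dapma7bEVm028425, an uncharacterized protein, had the largest rise that passed, with 4.82, 209, 15.3, 2.47 and 50.7 CPM with the higher dose beside 0, 0.314, 0.103, 0.427 and 0 CPM without (log2 fold change 8.28 ± 1.58, SE; adjusted p = 0.0408; this value too depends on the prior count). Its lowest spiked libraries were replicates 4 and 1. The cuticle members Dapma7bEVm011304 (7.54, adjusted p = 0.0394) and Dapma7bEVm011058 (6.39, adjusted p = 0.0204) passed as well. Over all 75 cuticle proteins 3 were higher and 10 lower with this dose. The number rested on single libraries. It was 0 without replicate 3 or replicate 5 of the unspiked group, and it was 26 without replicate 4 of the higher dose group. Without replicate 1 or 4 of the unspiked group it was 1 or 3, without replicate 3 or 5 of the higher dose group 2 or 4, and with the replicate number as a block it was 4.

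**Figure D3:**
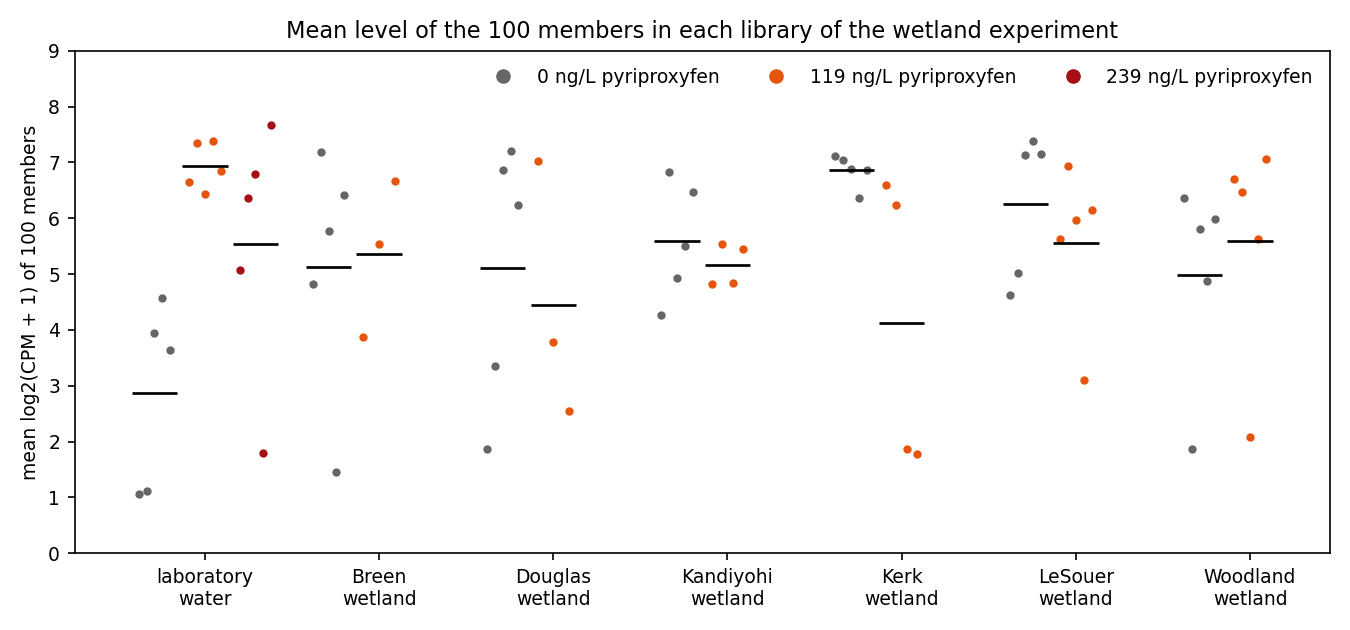
Mean log2(CPM + 1) of the 100 members in each library (points) of laboratory water and of 6 wetland waters, coloured by pyriproxyfen concentration, with black bars at the mean. The 5 libraries of laboratory water with the lower dose lay between 6.43 and 7.39, above all 5 without pyriproxyfen. Libraries of the Breen, Douglas and Woodland wetlands were widely spread at both concentrations. Those of Kerk without pyriproxyfen (6.37 to 7.12) and of Kandiyohi with the lower dose (4.83 to 5.55) lay close together.

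Wetland water without pyriproxyfen was mostly high. Its 30 libraries had a median mean level of 6.30 (1.46 to 7.39), and 25 of them were above the highest unspiked library of laboratory water. The Kerk wetland was uniform, with 7.12, 7.05, 6.88, 6.37 and 6.87. The Douglas wetland was divided, with 1.86, 3.35, 6.86, 7.20 and 6.24. Against the 5 unspiked libraries of laboratory water, 25 members were higher and 0 lower (backgrounds 0.619% and 0.777% of 25989 transcripts), and DESeq2 gave 60 higher, beside 2.81% of all transcripts. The median log2 fold change was 2.76 over the members and 0.04 over all transcripts. Dapma7bEVm009453 had the largest value, 9.22 ± 2.32 (SE; adjusted p = 0.036), and its base was at or near the floor. Of the 7 cuticle members, 5 passed, among them Dapma7bEVm011304 (7.24 ± 1.69, SE; adjusted p = 0.0202). This count rests on all 5 laboratory water libraries. It was 2, 1, 0, 1 and 1 with replicate 1, 2, 3, 4 or 5 left out, 13 with the replicate number as a block and 36 with counts summed per wetland. The carrier and the source of the water differ together between these groups and cannot be told apart.

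In wetland water both the spiked and the unspiked libraries held the carrier, unlike in laboratory water, and most members were not called in either direction. The 24 spiked libraries had a median mean level of 5.58 (1.77 to 7.06), beside 6.30 (1.46 to 7.39) in the 30 unspiked libraries, and 17 of the 24 were below the lowest library of laboratory water with the same concentration. Only 2 members were higher and 7 lower, shares close to or below the 7.55% and 7.81% of all 26166 transcripts, and the median log2 fold change was -0.29. DESeq2 gave 2 higher and 14 lower, beside 8.09% and 9.37% of all transcripts. In the Kerk wetland the spiked libraries were divided into 6.60 and 6.23 against 1.87 and 1.77, where all unspiked ones were high. The number of lower members was 3 with the Kandiyohi, Kerk or LeSouer wetland left out and 6 with any of the other 3. With counts summed per wetland and dose, 1 member was higher and 7 were lower.

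The difference between the spiked and unspiked libraries of each kind of water was tested as an interaction of dose and kind of water over 64 libraries, a test chosen after the data were seen. The log2 fold change with the lower dose was lower in wetland water than in laboratory water for 48 members and higher for 0, where 3.02% and 5.54% of 26228 transcripts passed in these directions. At an unadjusted p under 0.05 there were 63 members in either direction, beside 19.5% of all transcripts, and DESeq2 gave 54 lower and 1 higher, beside 4.05% and 6.45%. The largest value was -12.66 ± 2.90 (SE; adjusted p = 0.00343) for Dapma7bEVm009453, on the log2 scale. For Dapma7bEVm011304 the difference was -10.44 ± 2.16 (SE; adjusted p = 0.0016) and for carbonic anhydrase (Dapma7bEVm027279) it was -8.94 ± 1.74 (SE; adjusted p = 0.00104). The low unspiked libraries of laboratory water enter each of these differences, and since these alone held no carrier, the kind of water and the carrier cannot be told apart in this test.

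**Figure D4:**
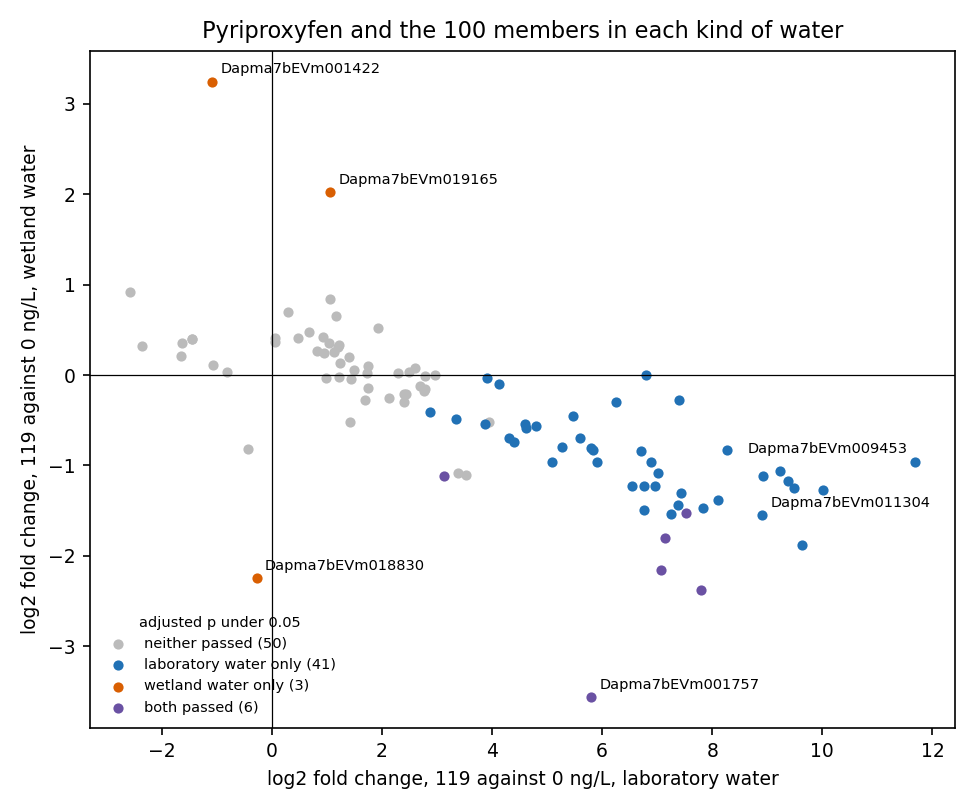
Log2 fold change with the lower dose against no pyriproxyfen in laboratory water (x) and in wetland water (y) for each of the 100 members, coloured by which test passed an adjusted p of 0.05. The 47 members that rose in laboratory water had values of 0.00 or less in wetland water, where 6 of them fell, beside 7.81% of all transcripts.

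Of the 47 members that rose with the lower dose in laboratory water, 6 fell with the lower dose in wetland water, beside 7.81% of all 26166 transcripts. Whether these 6 exceed that share was not tested. The largest fall was in the chorion peroxidase Dapma7bEVm001757. It had a median of 15.3 CPM (0.554 to 327) in unspiked and 0.996 CPM (0.0726 to 18.1) in spiked wetland water, with overlapping ranges and a log2 fold change of -3.56 ± 0.66 (SE; adjusted p = 0.000108, and 0.0737 with counts summed per wetland and dose). In laboratory water its log2 fold change had the other sign, 5.80 ± 0.62 (SE; adjusted p = 0.000166), with 1.29, 0.909, 0.452, 3.59 and 0.717 CPM without and 56.7, 127.9, 46.6, 141.5 and 55.5 CPM with the lower dose. Carbonic anhydrase (Dapma7bEVm027279) fell by 1.80 on the log2 scale (adjusted p = 0.0288) and the cuticular protein Dapma7bEVm011058 by 1.52 (adjusted p = 0.0474, and 0.0521 with the sums). The clip-domain serine protease Dapma7bEVm018830 fell in wetland water (-2.25 ± 0.53, SE; adjusted p = 0.00231, and 0.0899 with the sums) with no such call in laboratory water (-0.28, adjusted p = 0.92), and the difference between the waters did not pass for it (-1.99 ± 1.33, SE; adjusted p = 0.45).

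Against the direction of most members, 2 rose in wetland water with the lower dose. Dapma7bEVm001422, named only by a scaffold, was at or near 0 in part of the libraries of almost every group. It had 3 or fewer counts in 9 of 45 spring, 24 of 44 early summer and 8 of 50 late summer stormwater libraries, and in 13 of the 30 unspiked wetland libraries. In the 24 wetland libraries with the lower dose it was never low, with a lowest value of 36.7 CPM, a median of 132.98 and a highest of 628, beside a median of 2.39 CPM (0 to 80.2) in unspiked wetland water. The log2 fold change was 3.25 ± 0.70 (SE; adjusted p = 0.000781). It was 5.74 with wetland as a covariate (adjusted p = 3.94e-05) and 5.36 with counts summed per wetland and dose, where the call was lost (adjusted p = 0.185). In laboratory water it had 0, 5.48, 67.9, 88.2 and 2.19 CPM without and 0.269, 0, 65.5, 17.1 and 0 CPM with the lower dose. These overlap, and the interaction did not pass (4.35 ± 1.92, SE; adjusted p = 0.175). Dapma7bEVm019165, the second chorion peroxidase, had a median of 262 CPM (55.3 to 786) in spiked and 41.2 CPM (15.5 to 695) in unspiked wetland water (log2 fold change 2.02 ± 0.32, SE; adjusted p = 1.06e-05, and 0.0499 with the sums). Both peroxidases were lowest in early summer in stormwater, with medians of 13.9, 0.677 and 4.53 CPM for Dapma7bEVm001757 and 86.98, 19.5 and 142.7 CPM for Dapma7bEVm019165 in spring, early summer and late summer, but they moved in opposite directions with the lower dose in wetland water.

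**Figure D5:**
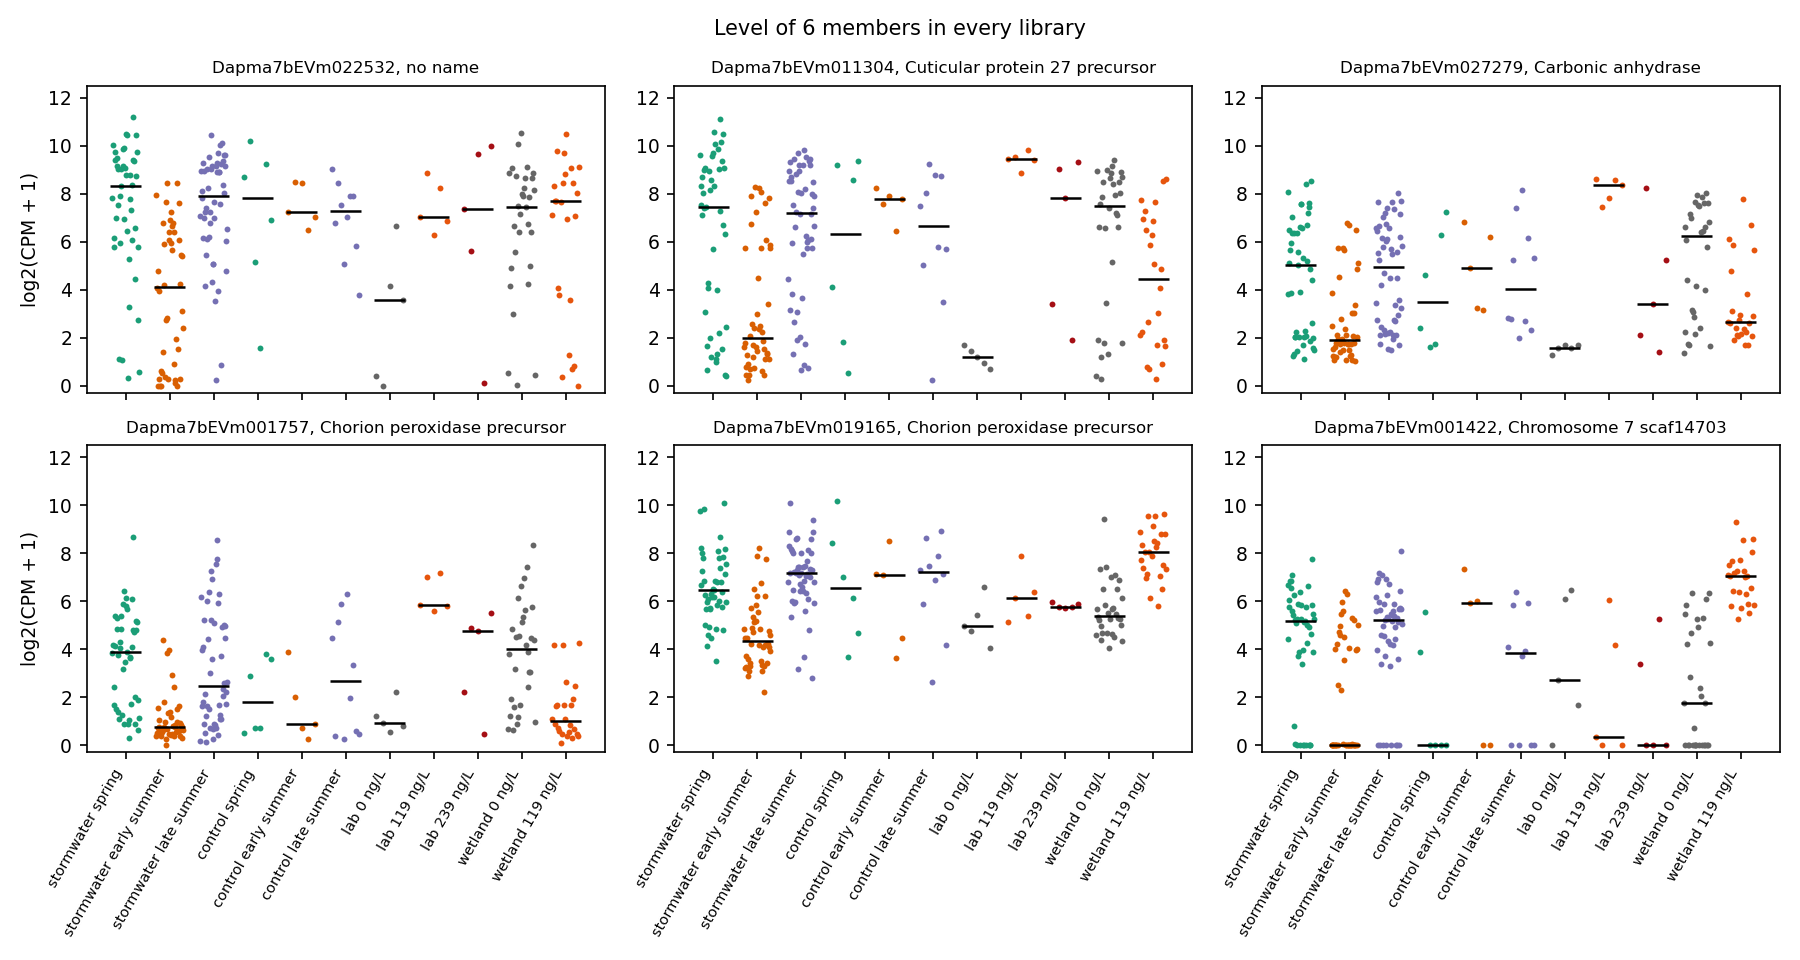
Level of 6 members as log2(CPM + 1) in every library (points), by group, with black bars at the median. Dapma7bEVm001422 was at or near 0 in part of the libraries of every group but wetland water with the lower dose, where its lowest library had 36.7 CPM, and the 2 chorion peroxidases differed in wetland water.

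Between kinds of stormwater, no member was called. The SD between libraries of the same water was 2.05 for the median member, so these tests could miss sizeable differences. Filter outfall and filter inflow were compared over 45 and 44 libraries with season and site in the fit, and 0 members were higher and 0 lower (backgrounds 0.00383% and 0% of 26135 transcripts). DESeq2 gave 0 as well (backgrounds 0.00383% and 0.00765%), no member had an unadjusted p under 0.05, beside 6.21% of all transcripts, and the log2 fold changes lay between -0.67 and 0.62 with a median of 0.15. Pipe outflow (50 libraries) and filter inflow were compared with season in the fit. Again 0 members were higher and 0 lower with edgeR and with DESeq2 (backgrounds 0.86% and 0.658% of 26154 transcripts with edgeR, 0.914% and 0.788% with DESeq2), 1 member had an unadjusted p under 0.05, beside 10.7% of all transcripts, and the log2 fold changes lay between -1.12 and 0.79. Counts summed per water gave 0 in both comparisons, as did pipes against inflow without spring replicate 3 of the Crystal Lake pipe.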

How the data were processed

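Reads of stranded mRNA libraries were quality-trimmed (Trimmomatic) and pseudoaligned to a transcript set (kallisto) by the authors, and the deposited table holds the resulting estimated counts, not normalized. A batch correction in the paper's methods is not in these counts and was not applied. The genome build is not given in the sources used here. Library totals were 5040650 to 15037010 counts. A floor of 3 counts is 0.2 to 0.595 CPM, which covers counting error only.

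Levels use the estimated counts and column totals. For tests, counts were rounded (31.3% of the values were not whole), 26256 transcripts with variance in both experiments were kept, and edgeR 4.0.16 in R 4.3.3 was used (TMM, quasi-likelihood test, Benjamini-Hochberg adjustment over all transcripts tested, threshold 0.05), with only the groups compared except for the 3 seasons of controls. Alternatives were DESeq2 1.42.0, median-ratio size factors, filterByExpr, the replicate number as a block, wetland as a covariate, sums per water, and libraries or waters left out. The stormwater library with the fewest counts was also left out, a choice made after the data were seen. Each SE was back-calculated from the log2 fold change and the F statistic of the quasi-likelihood test. It is approximate, and depends on the prior count of the fit where a group is near 0. The test was tried on simulated data with the same dispersion (spread between libraries) for every transcript. The members spread more widely than most, so the trial does not show how the test does for them.

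The members and the gene lists were chosen with earlier results of these data known. Named are the 10 highest scores, every member with an informative name, the 3 most abundant, the largest rise and fall in each test and the 3 ranks on either side of the limit. Names come from the study's tables, which hold transcripts picked out in these same libraries, so lists by name are not a neutral sample of all transcripts. No member's identifier matched the RefSeq gene table, so no sequences are shown.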

Additional observations from a re-analysis of the deposited data

Results flagged for a closer look

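Single libraries that stood apart from the others of their group were looked for with Dixon's test at the 95% level in 80 groups of 4 to 10 values, and 10 were found. Chance gives about 1 in 20 groups, and CPM values are skewed. In the mean level of the members, the low libraries were 1 of the Woodland wetland with the lower dose (2.09), 1 of the SAP pipe in late summer (2.90) and 1 of the second set of the same pipe (4.86). Among members printed by library, high values stood apart for Dapma7bEVm022532 (101 CPM) and Dapma7bEVm029435 (30.7 CPM) in unspiked laboratory water, for Dapma7bEVm001757 in the early summer controls (13.9 CPM) and in unspiked laboratory water (3.59 CPM), and for Dapma7bEVm001422 in the spring controls (45.7 CPM) and in laboratory water with the lower dose (65.5 CPM) and the higher dose (37.4 CPM).

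The log2 fold change with the lower dose of pyriproxyfen differed between wetland and laboratory water in 48 members by the interaction test, all lower in wetland water, where the unspiked libraries held the carrier and those of laboratory water did not.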

How the results depend on the processing

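Under the other settings of the rule 74 to 100 of the members were kept, 74 with season medians, 83 with a pseudocount of 0.1 CPM, 91 with TMM library sizes and 85 to 94 with 1 sampling point left out. The counts of 0 in the controls, between outfall and inflow and between pipes and inflow were 0 under each alternative run. For the lower dose in laboratory water 41 to 54 members were higher with 1 library left out and 44 with the replicate block, and DESeq2 gave 1 lower. For the higher dose the count was 42 with DESeq2, 4 with the replicate block and 0 to 26 with 1 library left out. For wetland against laboratory water it was 60 with DESeq2, 13 with the replicate block and 0 to 2 with 1 library left out. For the lower dose in wetland water DESeq2 gave 14 lower members, sums per wetland gave 1 higher, and 3 to 6 were lower with 1 wetland left out. For the difference between the waters 42 to 49 members were lower with 1 library left out, 46 with the replicate block, and DESeq2 gave 1 higher. The causes were not tested. Refits of named members covered only calls that had passed in the main fit, so a change of direction was unlikely in advance. None of these 750 refits changed direction, 638 kept the side of the threshold, and 8 of 57 calls were lost under the block. Signs without a call were less stable. Between outfall and inflow the log2 fold change was above 0 in 70 members, and in 29 with TBNS1 left out. Libraries with the same replicate number deviated together most clearly between outfall and inflow (r from 0.29 to 0.65, where the block also gave 0). Between pipe outflow and filter inflow r was above 0 for each replicate number (0.03 to 0.63), and the block gave 0 there too. Elsewhere r lay between -0.73 and 0.70, nothing in the labels pairs the libraries, and the block is an alternative only. In low libraries many members were at or under 3 counts, so their folds are poorly determined.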

Other observations

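The library left out of the groups had a mean level over the members of 5.21, within the range of the early summer (0.88 to 6.95) and of the late summer (1.34 to 7.81) stormwater libraries.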
